A study of Rattus norvegicus with 18 samples.

Results

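The microRNAs (miRNAs) described here are rno-miR-378a-3p and rno-miR-378b (miR-378a-3p and miR-378b below), 2 of the 401 mature miRNA rows counted in rat liver, found in the table by their row names. The family itself was chosen with earlier results of these data known. Small RNA was sequenced from 18 liver libraries in 3 groups of 6, all from rats aged 8 weeks. The groups were obese Zucker diabetic fatty (ZDF) rats given colesevelam, obese ZDF rats given vehicle, and lean rats labelled with no agent. Every label, that of the lean rats included, gives the strain as ZDF-Leprfa/Crl, so all groups share that strain label and the lean rats are known by their group name and phenotype label. Obese ZDF rats carry the fa mutation of the leptin receptor and become obese and diabetic. The mutation is in the whole animal and not in the liver alone. Colesevelam is a polymer taken by mouth that traps bile acids in the intestine. The labels state neither its dose nor the length of treatment. The stated question was how liver miRNAs change in ZDF rats on vehicle or colesevelam. No label says which libraries came from separate animals, so a p-value here speaks only of variation among libraries, some of which may be technical.

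The miR-378a hairpin is transcribed from an intron of Ppargc1b, the gene for the transcriptional coactivator PGC-1β, which drives mitochondrial and fatty acid genes in the liver. A miRNA guides Argonaute to messenger RNAs mainly through its seed, bases 2 to 8 from its 5′ end, and lowers their translation and stability. In mice miR-378a is known for restraining mitochondrial metabolism and energy use, and for changing hepatic insulin signalling and glucose production. miR-378b is a paralog whose hairpin lies within the span of Ncoa2, a gene for another nuclear receptor coactivator. Both host positions were read from the RefSeq annotation of assembly GRCr8.

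The sequences are shown because the rows can be told apart by very little. They are given 5′ to 3′ as deposited, in DNA letters, with the seed in capitals.

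miR-378a-3p: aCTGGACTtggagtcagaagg

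miR-378b: aGTGGACTtggagtcagaagg

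miR-378a-5p: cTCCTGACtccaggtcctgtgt

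The authors place miR-378a-3p at chr18:55956665-55956685, miR-378a-5p at chr18:55956702-55956723 and miR-378b at chr5:10415501-10415521, all on the minus strand. The sources used here do not name the genome build. Both arms of miR-378a matched their RefSeq mature sequences. miR-378a-3p and miR-378b were identical at 20 of 21 bases and differed by the single substitution C2G, with positions counted from 1 at the 5′ end and the base of miR-378a-3p first. That base is the first of the seed, so each row had a seed that no other row of the table carried. Only miR-378b came within 5 mismatches of miR-378a-3p. miR-378a-5p, the other strand of the same hairpin, was used as a comparison and is the only further row named miR-378. The row for miR-3557-3p is the exact reverse complement of miR-378a-5p, on the plus strand, and held 1 count in all.

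The 18 libraries held 32936 to 881452 miRNA counts, and depth went with the groups. Totals ran from 32936 to 122881 on colesevelam, from 37910 to 147313 on vehicle and from 110352 to 881452 in lean rats. The hepatocyte markers (miR-122 arms, miR-192-5p and miR-194-5p) made up 23.4% to 35.5% of counts on colesevelam, 19.5% to 29.1% on vehicle and 28.1% to 37.9% in lean livers, so the labelled tissue was seen in every library. Of 7 striated muscle markers, which matter because muscle is rich in miR-378a, 5 were not listed, miR-1-3p, miR-133b-3p and miR-206-3p among them. The other 2 together reached at most 0.00304% of counts on colesevelam, 0.00421% on vehicle and 0.00362% in lean livers. Some markers of other cells moved with the groups. The 5 leukocyte markers summed to 0.0794% to 0.125% of counts on colesevelam, 0.0940% to 0.183% on vehicle and 0.167% to 0.325% in lean livers. The 5 epithelial and bile duct markers summed to 0.0147% to 0.0243% on colesevelam, 0.00762% to 0.0253% on vehicle and 0.0397% to 0.0630% in lean livers. The leukocyte and epithelial lists were small beside miR-378a-3p. The 5 stromal and stellate markers summed to 3.22% to 5.06% on colesevelam, 3.57% to 5.24% on vehicle and 3.64% to 4.44% in lean livers. For the 2 endothelial markers the sums were 0.497% to 1.02%, 0.406% to 0.813% and 0.614% to 1.22% in the same order. These ranges overlapped between all groups, as did those of erythroid and pancreas markers. The part of any list in the results was not tested. In bulk tissue, fewer cells of a type and less RNA per cell cannot be told apart.

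miR-378a-3p was one of the most abundant liver miRNAs. It held 130924 counts, 4.73% of all miRNA counts, and had rank 6 of 401 by summed count. It ranked between 2 and 7 in the colesevelam libraries, between 2 and 7 in the vehicle libraries and between 5 and 9 in the lean libraries. The other rows of the family were minor. miR-378b held 249 counts in all (0.00899% of counts, rank 117) and miR-378a-5p 333 counts (rank 109). With mature lengths of 21, 21 and 22 bases, counts of the 3 rows were compared without scaling by length.

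Both obese groups had more miR-378a-3p, relative to the other miRNAs, than lean livers did, and the colesevelam and vehicle groups were not told apart. Neither difference from lean livers was called once library depth was a term of the fit (edgeR adjusted p = 0.565 for vehicle and 0.479 for colesevelam). Levels are CPM, counts set against the library total after TMM scaling, so that each value is relative to the bulk of the other miRNAs of its library. In the 6 colesevelam libraries the level of miR-378a-3p was 42600 CPM at the lowest, 69456 at the median and 102186 at the highest. In the 6 vehicle libraries it was 48970, 77137 and 99805 CPM. In the 6 lean libraries it was 38365, 42720 and 47706 CPM. All 6 vehicle libraries were above the highest lean one. On colesevelam 5 of 6 were, and colesevelam library 3, at 42600 CPM, lay inside the lean range.

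Vehicle livers averaged 73923 ± 21427 CPM of miR-378a-3p, against 42586 ± 3659 CPM in lean livers (SD, n = 6 each). The log2 fold change of vehicle over lean was 0.80 ± 0.21 (SE; 95% interval 0.36 to 1.23), a level 1.74-fold as high (edgeR quasi-likelihood test, Benjamini-Hochberg adjusted p = 0.0198). Of the 112 rows tested, 7 (6.25%) were called at an adjusted p under 0.05 in this comparison, 4 (3.57%) higher and 3 (2.68%) lower, with miR-378a-3p among the higher ones. Groups that did not overlap in TMM-scaled CPM, as here, were seen in 3 rows (2.68%). As plain shares of the miRNA total the groups did overlap, since vehicle 4 (4.62%) and vehicle 5 (5.11%) lay below lean 3 (5.48%). The call rested on single libraries: without lean 1, lean 4, vehicle 3 or vehicle 6 the edgeR adjusted p was 0.0546, 0.0679, 0.0650 or 0.0624, with log2 fold changes between 0.65 and 0.89 over all 12 libraries left out in turn. With upper-quartile factors in place of TMM the edgeR adjusted p was also 0.0546, at a log2 fold change of 0.88. For scale, miR-21-3p, the passenger arm of an injury-responsive miRNA, was 2.73 ± 0.32 higher on the log2 scale (edgeR adjusted p = 2.12e-06).

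Colesevelam livers averaged 71305 ± 19373 CPM, against the same 42586 ± 3659 CPM in lean livers (SD, n = 6 each). The log2 fold change of colesevelam over lean was 0.74 ± 0.21 (95% interval 0.31 to 1.18), a level 1.67-fold as high (edgeR adjusted p = 0.0153). In that comparison 24 of 112 rows (21.4%) were called, 13 of them higher (11.6%) and 11 lower (9.82%), so a call there was less unusual than in vehicle against lean. It held with any 1 library left out (largest edgeR adjusted p = 0.0369). Both comparisons use the same lean libraries. The 18 libraries carry 13 different label numbers, 4 on colesevelam, 5 on vehicle and 4 in lean rats, whose meaning the labels do not give. With libraries of one number summed, the log2 fold change of miR-378a-3p was 0.78 for vehicle over lean (edgeR adjusted p = 0.0404) and 0.71 for colesevelam over lean (edgeR adjusted p = 0.0377).

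Between the obese groups no difference in miR-378a-3p was detected. Colesevelam livers averaged 71305 ± 19373 CPM and vehicle livers 73923 ± 21427 CPM. The log2 fold change of colesevelam over vehicle was -0.05 ± 0.21, with a 95% interval of -0.49 to 0.38 and an edgeR adjusted p of 0.936, while 12 of 112 rows (10.7%) were called, 8 higher (7.14%) and 4 lower (3.57%). The interval still allows changes of either sign. Its sign turned when any of 8 libraries was left out.

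**Figure D1:**
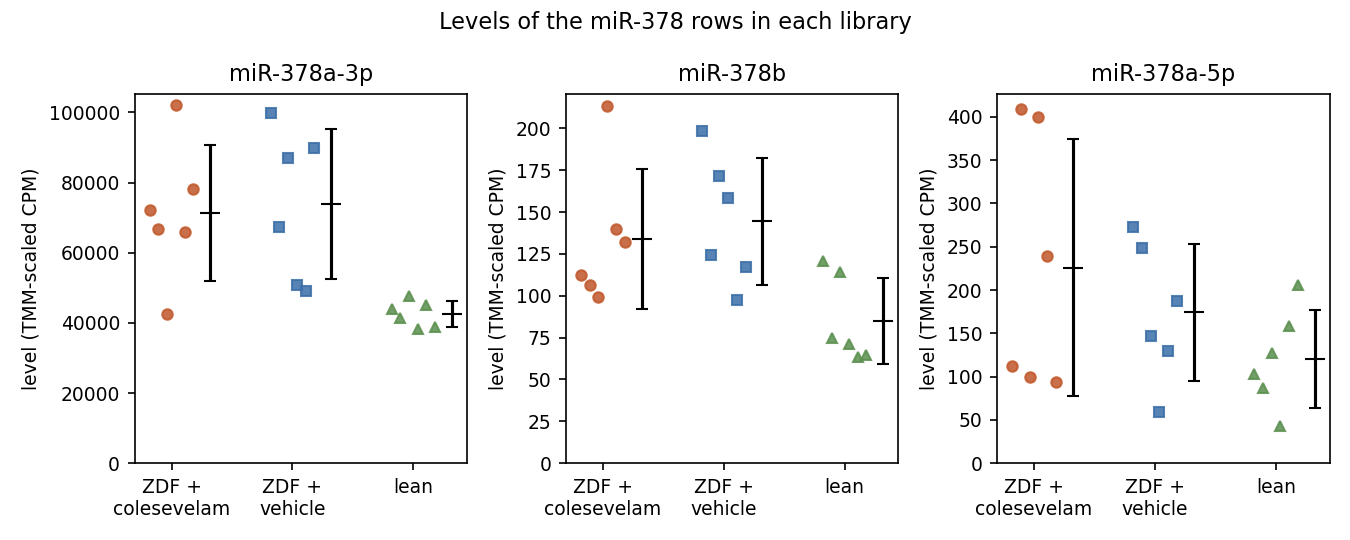
Levels of miR-378a-3p, miR-378b and miR-378a-5p (y axes, TMM-scaled CPM, linear from 0) in the 18 libraries, 6 per group, with the group mean ± SD in black. For miR-378a-3p every vehicle library lies above the highest lean library (47706 CPM), while colesevelam library 3 (42600 CPM) lies within the lean range.

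In the level of miR-378a-3p the lean libraries were also much closer together. The coefficient of variation of miR-378a-3p was 27.2% on colesevelam, 29.0% on vehicle and 8.59% in lean livers. The SD in CPM was 5.29 times that of lean libraries on colesevelam and 5.86 times on vehicle. For plain shares of the miRNA total these ratios were smaller, 2.57 and 3.44, with coefficients of variation of 28.7% on colesevelam, 33.8% on vehicle and 17.9% in lean livers. For miR-378b the coefficient of variation of CPM was 31.2% on colesevelam, 26.3% on vehicle and 30.3% in lean livers. For miR-122-5p it was 25.1%, 31.5% and 57.6% in the same order. Other rows shared the low value in lean livers: miR-340-5p had 46.9%, 34.2% and 12.7%, and miR-99b-5p 38.6%, 43.5% and 20.1%. For miR-103-3p the values were 20.2%, 24.4% and 17.9%, and for miR-23b-3p 14.8%, 29.6% and 27.5%. These spreads were not tested against each other, and most obese libraries were also shallower.

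miR-378b had fold changes close in size to those of miR-378a-3p, but none passed the threshold. On colesevelam its level was 99.5 CPM at the lowest, 122.2 at the median and 213 at the highest. On vehicle it was 97.5, 141 and 199 CPM, and in lean livers 63.2, 73.0 and 121 CPM. Both obese groups overlapped the lean range. The log2 fold change of vehicle over lean was 0.73 ± 0.26 (95% interval 0.19 to 1.26; edgeR adjusted p = 0.110). Colesevelam over lean gave 0.65 ± 0.26 (0.11 to 1.18; edgeR adjusted p = 0.0729). Colesevelam over vehicle gave -0.08 ± 0.28 (-0.66 to 0.49; edgeR adjusted p = 0.997). These values rest on few reads, 4.5 to 14 counts per library on colesevelam, 5.5 to 15 on vehicle and 10 to 57 in lean livers.

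The minor arm was measured even less precisely. miR-378a-5p held 4 to 24 counts per library on colesevelam, 3 to 20 on vehicle and 12 to 66 in lean livers. Its median level was 176 CPM on colesevelam, 167 on vehicle and 115 in lean livers, and all groups overlapped. The log2 fold changes were 0.54 ± 0.43 for vehicle over lean (edgeR adjusted p = 0.547), 0.92 ± 0.42 for colesevelam over lean (0.106) and 0.38 ± 0.44 for colesevelam over vehicle (0.723), so no difference was detected at this depth.

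**Figure D2:**
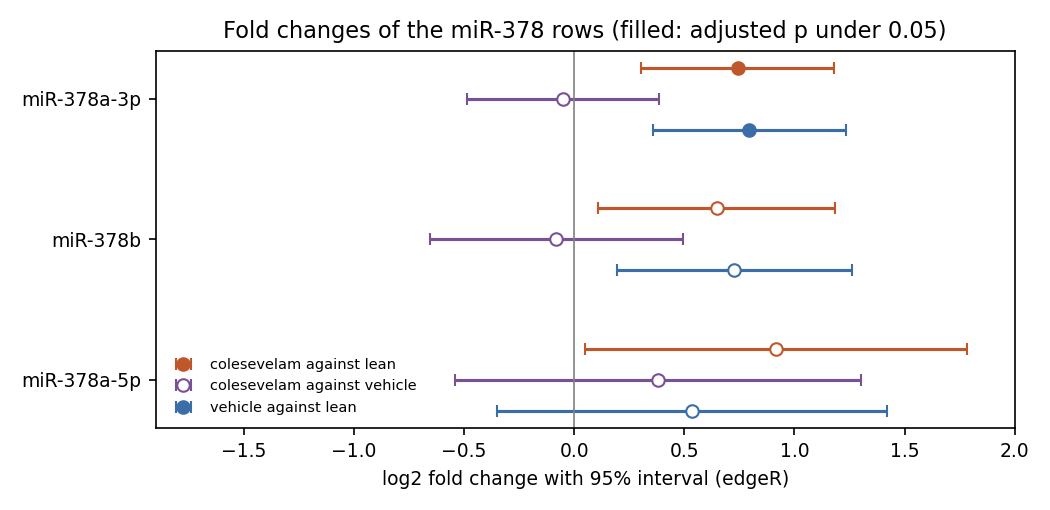
Log2 fold changes of the 3 miR-378 rows in each comparison, with their 95% intervals from edgeR. Filled points passed an adjusted p of 0.05, which holds for miR-378a-3p in vehicle against lean (0.80) and in colesevelam against lean (0.74).

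The counts of both members shared a feature that bears on miR-378b. Deposited counts are not all whole: both rows ended in 0.5 in the same 8 libraries and were whole in the same 10, and no other row of the table had this pattern. Counts of this kind can arise when a read that matches several sequences is divided between their rows. How many of the reads counted for miR-378b came from miR-378a-3p was not tested. Over all libraries there were 526 counts of miR-378a-3p for each count of miR-378b.

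The amount of miR-378b was also set against miR-378a-3p within each library, which cancels the library total. The counting noise of the few miR-378b reads remains, and it is larger in shallow libraries. miR-378b was 0.190% of miR-378a-3p over all counts, and between 0.137% and 0.332% in single libraries. The medians were 0.192% on colesevelam, 0.192% on vehicle and 0.181% in lean livers. The mean log2 ratio of miR-378b to miR-378a-3p differed by 0.03 between vehicle and lean, by -0.02 between colesevelam and lean and by -0.06 between colesevelam and vehicle (two-sided exact permutation tests, p = 0.874, 0.896 and 0.812, each 0.896 after adjustment). Group differences in this ratio were smaller than the spread between libraries.

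**Figure D3:**
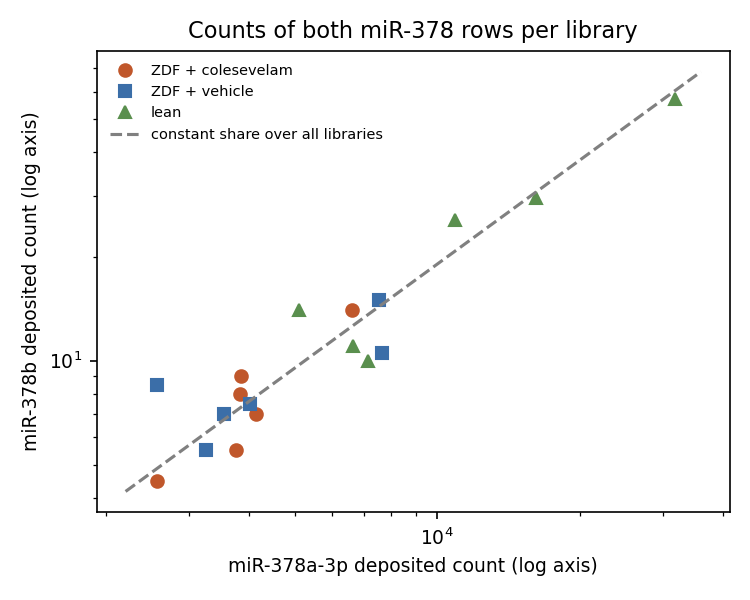
Deposited counts of miR-378b (y axis, log) against those of miR-378a-3p (x axis, log), 1 point per library, with a dashed line at the overall share of 0.190%. Libraries of all 3 groups lie about the line, and both library depth and the level of miR-378a-3p spread points along it.

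The arms of the miR-378a hairpin kept a strong bias to 3p in every group. There were 163 to 830 counts of miR-378a-3p for each of miR-378a-5p on colesevelam (median 352), 271 to 853 on vehicle (median 428) and 189 to 896 in lean livers (median 400). The mean log2 ratio of arms differed by 0.21 between vehicle and lean, by -0.08 between colesevelam and lean and by -0.30 between colesevelam and vehicle (two-sided exact permutation tests, p = 0.593, 0.855 and 0.491, adjusted 0.763, 0.896 and 0.680). No difference in arm use was detected, with 3 to 66 counts of the minor arm behind each ratio.

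Shares of the miRNA total, which need no scaling factor, ran in the same directions. These shares and all ratios within a library were given a two-sided exact permutation test of 6 libraries against 6, with adjustment over the 18 tests of this kind, and p could not go below 0.00216. miR-378a-3p took 7.81% ± 2.64 of miRNA counts in vehicle livers and 4.29% ± 0.767 in lean livers (SD, n = 6 each; exact p = 0.0130, adjusted 0.0779). It took 6.87% ± 1.97 in colesevelam livers, 2.57 percentage points above lean livers (exact p = 0.0152, adjusted 0.0779) and 0.941 points below vehicle livers (exact p = 0.474, adjusted 0.680). With 1 library left out that difference of colesevelam minus vehicle ran from -1.58 to -0.364 points. None of the 18 tests passed 0.05 after adjustment.

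Ratios to other abundant liver miRNAs were examined in the same way. The ratio to miR-192-5p, the most abundant row in every library, had a median of 0.286 on colesevelam, 0.456 on vehicle and 0.170 in lean livers. Its geometric mean was 2.28-fold as high on vehicle as in lean livers (exact p = 0.0346, adjusted 0.125), 1.74-fold on colesevelam as in lean livers (exact p = 0.0628, adjusted 0.141) and 0.765-fold on colesevelam as on vehicle (exact p = 0.396, adjusted 0.666). The ratio to miR-122-5p, the defining hepatocyte miRNA, had a median of 1.37 on colesevelam (1.24 to 1.87), 1.95 on vehicle (1.56 to 2.30) and 1.05 in lean livers (0.586 to 2.33). Its geometric mean was 1.78-fold as high on vehicle as in lean livers (exact p = 0.0476, adjusted 0.141) and 1.32-fold on colesevelam as in lean livers (exact p = 0.266, adjusted 0.532). On colesevelam it was 0.743 times that on vehicle, with overlapping ranges (exact p = 0.0173, adjusted 0.0779). The log2 ratio to miR-122-5p was -0.46, -0.77 and -0.41 in lean 1, 3 and 5. In lean 2, 4 and 6 that log2 ratio was 1.22, 0.42 and 0.85, against 0.64 to 1.20 in vehicle libraries. Neither partner was itself called in vehicle against lean: the log2 fold change was -0.46 ± 0.26 for miR-192-5p and -0.24 ± 0.32 for miR-122-5p (edgeR adjusted p = 0.392 and 0.789).

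Depth moved with these results. Among the libraries of similar depth, colesevelam 5 with 122881 counts stood at 65862 CPM of miR-378a-3p and vehicle 5 with 147313 counts at 48970 CPM, against 43949 CPM in lean 1 with 110352 counts and 45101 CPM in lean 5 with 152409 counts. The highest levels were in the shallow libraries colesevelam 4 (102186 CPM in 38047 counts) and vehicle 1 (99805 CPM in 39371 counts). The shallowest library, colesevelam 1, had 72088 CPM in 32936 counts. On vehicle, library 3 had 86955 CPM in 37910 counts, and library 2 had 67318 CPM in 47520. Vehicle 4 had 50719 CPM in 55343 counts, and vehicle 6 had 89773 CPM in 71564 counts. On colesevelam, library 2 had 66823 CPM in 55562 counts, library 6 had 78271 in 61316 and library 3 had 42600 in 86935. With the log2 library total as a further term, the log2 fold change was 0.40 ± 0.29 for vehicle over lean (edgeR adjusted p = 0.565) and 0.35 ± 0.29 for colesevelam over lean (edgeR adjusted p = 0.479). The level of miR-378a-3p changed by -0.18 ± 0.10 on the log2 scale for each doubling of the total in that fit (edgeR adjusted p = 0.197). Lean and deep libraries largely coincide, and the SE of the fold change is wider in that fit than the 0.21 without the term.

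**Figure D4:**
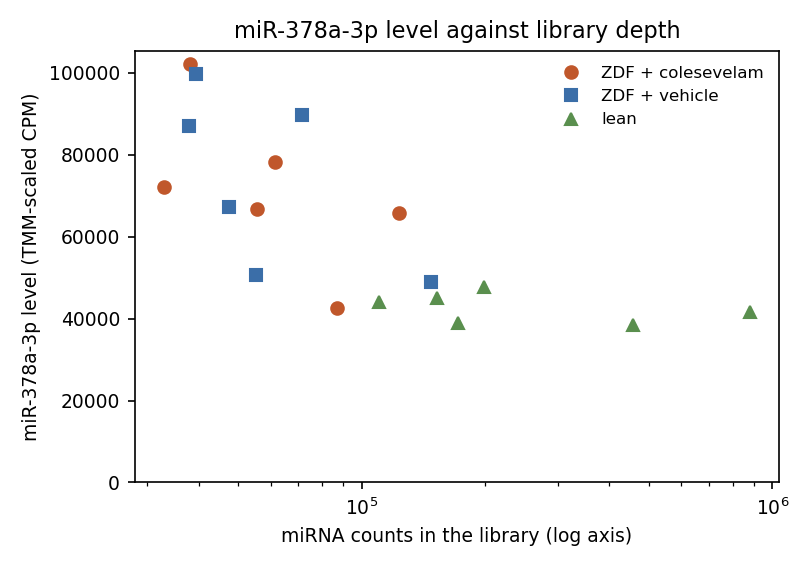
Level of miR-378a-3p (y axis, TMM-scaled CPM) against the miRNA counts of each library (x axis, log). Lean libraries hold at least 110352 counts and lie between 38365 and 47706 CPM, and obese libraries spread from 42600 to 102186 CPM.

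Base composition also differed between libraries. The slope of log2 CPM on GC content was taken over the tested rows, from a GC share of 0 to 1. Its median was -6.56 on colesevelam (-10.3 to -4.49), -5.11 on vehicle (-9.88 to -2.41) and -7.61 in lean libraries (-10.6 to -4.81), with overlapping ranges. Lean 1, 3 and 5 had slopes of -4.81, -5.71 and -5.22, with miR-378a-3p at 43949, 47706 and 45101 CPM. Lean 2, 4 and 6 had -9.50, -10.6 and -9.97, with 41491, 38365 and 38906 CPM. Both members are 52.4% GC. In a fit with this slope as a term, the level of miR-378a-3p changed by 0.105 ± 0.024 on the log2 scale per unit of slope (edgeR adjusted p = 0.000694), as did that of many rows (67 of 112 called). Its log2 fold changes were then 0.52 for vehicle over lean, against 0.80 without the term (edgeR adjusted p = 0.0239), and 0.67 for colesevelam over lean (edgeR adjusted p = 0.000675). The slope was computed from these same rows, both members included, so calls for it partly follow from how it was built. Whether base composition bears on the level of miR-378a-3p was not tested.

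The authors' deposited table gives the opposite sign for these rows in both comparisons with lean livers, and the same sign between the obese groups. In it the log2 fold change of miR-378a-3p is -1.64 for vehicle over lean (adjusted p = 0.00237), -2.02 for colesevelam over lean (adjusted p = 3.37e-05) and -0.38 for colesevelam over vehicle (adjusted p = 0.658). For miR-378b the authors' deposited table has -1.67, -2.03 and -0.35. Against lean livers nearly all rows of the authors' deposited table are negative: 181 of 183 for vehicle over lean, with a median of -2.41, and all 182 for colesevelam over lean, with a median of -2.87. For colesevelam over vehicle it has 102 of 127 rows negative, with a median of -0.36. The size factors behind it, recovered from the deposited mean scaled counts, ran from 0.752 to 1.46, while the miRNA totals spanned 26.8-fold. With those factors in edgeR, miR-378a-3p was 0.74 above the median of all tested rows in vehicle over lean and 0.73 above it in colesevelam over lean, close to its values under TMM. Read against the other miRNAs the difference was thus positive on both scales, and read against the authors' size factors alone it was negative.

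**Figure D5:**
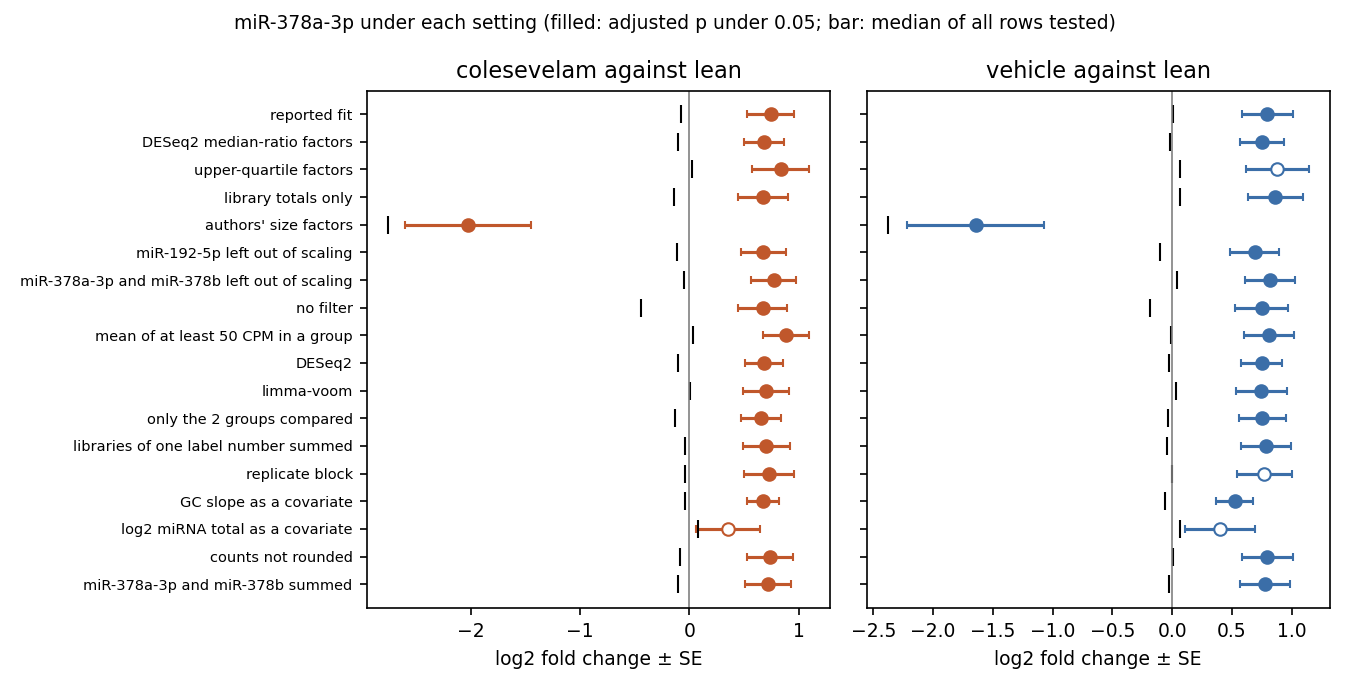
Log2 fold change ± SE of miR-378a-3p in colesevelam over lean (left) and vehicle over lean (right) under each setting, with a bar at the median of all rows tested. Filled points passed an adjusted p of 0.05. The values under the authors' size factors are -2.02 and -1.64, and in every setting the point lies to the right of the bar.

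The rows whose levels ran most like those of miR-378a-3p across the 18 libraries were found by Pearson's correlation of log2 CPM, which all share the same libraries and depths. They were miR-23b-3p (r = 0.82), miR-378b (0.81), miR-340-5p (0.76), miR-103-3p (0.71) and miR-99b-5p (0.70). After group means were taken out, r was 0.65, 0.62, 0.69, 0.52 and 0.89 in the same order. For miR-378b the list was miR-378a-3p (0.81), miR-23b-3p (0.80), miR-103-3p (0.80), miR-25-3p (0.64) and let-7c-5p (0.63). The other arm, miR-378a-5p, correlated at 0.61 with miR-378a-3p and had rank 15 in that order. Of these neighbours miR-23b-3p, from an abundant liver cluster, was called higher in colesevelam over lean (log2 0.60 ± 0.21, edgeR adjusted p = 0.0380). Its change in vehicle over lean was close in size, 0.59 ± 0.21, but was not called (edgeR adjusted p = 0.110). In vehicle and colesevelam over lean miR-340-5p had 0.75 and 0.48 and miR-103-3p 0.40 and 0.53, none of them called. miR-99b-5p was called in colesevelam over lean (1.15 ± 0.29, edgeR adjusted p = 0.00668) and in colesevelam over vehicle (0.99 ± 0.30, edgeR adjusted p = 0.0340), where miR-378a-3p was not.

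Among other miRNAs tied to PGC-1 genes, mitochondria or brown fat, 1 was called in any comparison. Of 23 listed, 19 had a row and 10 had enough counts to test. In vehicle over lean 1 of the 10 was called, miR-378a-3p itself, where 6.25% of all rows were, and the median log2 fold change of the 10 was 0.01, as over all 112 rows (0.01). In colesevelam over lean 1 was higher, again miR-378a-3p, and 1 lower, where 21.4% of all rows were called, with a median of 0.13 against -0.08 over all rows. The lower one was miR-30c-5p, a miRNA that promotes brown fat genes in mouse cells, with a log2 change of -0.91 ± 0.20 (edgeR adjusted p = 0.00200). None was called in colesevelam over vehicle, where 10.7% of all rows were and the medians were -0.04 and -0.01. Without the miR-378 rows, the other 7 had medians of -0.27, -0.10 and -0.03 in vehicle over lean, colesevelam over lean and colesevelam over vehicle. Among them miR-27b-3p, which represses brown fat regulators in mice, had log2 fold changes of -0.32 ± 0.19 and -0.43 ± 0.19 in vehicle and colesevelam over lean (edgeR adjusted p = 0.392 and 0.102). The p-values of miR-203a-3p, miR-93-5p and miR-27a-3p missed the threshold in all 3 comparisons as well.

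A list of 28 miRNAs that lie in introns of other protein-coding genes served as a second setting for an intronic miRNA. Of these, 27 had a row and 18 were tested. In vehicle over lean 1 of the 18 was called, miR-140-3p, hosted by the ubiquitin ligase gene Wwp2, with a log2 change of 1.19 ± 0.29 (edgeR adjusted p = 0.0100), where 6.25% of all rows were called. In colesevelam over lean miR-28-5p, hosted by Lpp, was the 1 call, at -1.30 ± 0.26 (edgeR adjusted p = 0.00117), and it was also the 1 call in colesevelam over vehicle (-0.87 ± 0.26, edgeR adjusted p = 0.0340). In these comparisons 21.4% and 10.7% of all rows were called, so 1 of 18 is a smaller share than over the table. The other and more abundant arm of that hairpin, miR-28-3p, had positive log2 fold changes of 0.40 ± 0.22 over lean and 0.35 ± 0.22 over vehicle (edgeR adjusted p = 0.179 and 0.405). The medians of the 18 were 0.01, 0.01 and 0.04 in vehicle over lean, colesevelam over lean and colesevelam over vehicle, near those of all rows. The most abundant of them, miR-26a-5p of the Ctdsp genes, had log2 fold changes of 0.02 ± 0.16 and 0.22 ± 0.16 in vehicle and colesevelam over lean (edgeR adjusted p = 0.989 and 0.351). Messenger RNA of the host genes, Ppargc1b included, was not analysed here.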

How the data were processed

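Per the file headers, the deposited table gives an estimated count of every mature miRNA in each library, with log2 fold changes, p-values and a mean scaled count (a signal averaged over the libraries of a comparison, baseMean) from the authors' own comparisons. The tools named by the submitters' processing notes are Bowtie 1.1.2 and DESeq2 1.18.1, with no role stated. The sources used here do not name the trimming, genome build, annotation or counting tool. Of 7218 deposited count values, 297 in 42 rows are not whole.

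Counts were rounded, filtered with filterByExpr (minimum count 10, minimum total 15), which left 112 of 401 rows holding 99.5% of counts, and scaled by TMM, whose factors ran from 0.815 to 1.19. One edgeR 4.0.16 model (R 4.3.3) of all 18 libraries gave robust quasi-likelihood F tests, with Benjamini-Hochberg adjustment over the 112 rows. For a row near Poisson spread edgeR keeps the larger of its F and Poisson p, so p and SE of miR-378b need not match. The biological coefficient of variation was 36.2%. Shares and ratios per library were compared by exact permutation tests. The authors' size factors were recovered from the mean scaled counts. Wilson 95% intervals cover counting error only. No libraries held identical values, and pairs within a group differed beyond sampling noise.

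The members and lists were chosen with earlier results of these data known. Named miRNAs were the members, other rows named miR-378, the 5 rows most like each member, miR-192-5p and miR-122-5p, up to 6 abundant tested rows of each list plus those called, and miR-21-3p for scale. The fits with GC slope or log2 total as a term, with unrounded counts and with the members summed were added after seeing the data. The fitting code was checked on simulated counts with larger changes than those of the members. That check does not bear on calls of the members' size. Alternatives with DESeq2 1.42.0 and limma 3.58.1 are given in the closing section.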

Additional observations from a re-analysis of the deposited data

Results flagged for a closer look

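Of 27 sets of 6 libraries checked for a library far from the rest, 2 held one, and both are the same library and row. Colesevelam library 4 had the highest level of miR-378b, 213 CPM, against 99.5 to 140 CPM in the other colesevelam libraries, and the highest share, 0.0210% of its miRNA counts. That share is 8 counts of 38047, with a 95% Wilson interval of 0.0107% to 0.0415%. The same library also had the highest miR-378a-3p level, 102186 CPM. Chance alone would mark about 5% of such sets.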

How the results depend on the processing

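Of 98 log2 fold changes of the members recomputed under other settings, 84 kept their direction and side of the threshold. That count includes changes that were not called to begin with. For miR-378a-3p in vehicle over lean, 13 of 17 settings kept the call, 3 missed the threshold and 1 turned the sign. The edgeR misses came with upper-quartile factors (0.88, adjusted p = 0.0546), the log2 miRNA total as a term (0.40, adjusted p = 0.565) and sample number as a block (0.77, adjusted p = 0.0639). In colesevelam over lean miR-378a-3p missed the edgeR threshold with the log2 miRNA total (0.35, adjusted p = 0.479). The authors' size factors turned the sign: miR-378a-3p then had -1.64 in vehicle over lean and -2.02 in colesevelam over lean, and miR-378b -1.65 and -2.01, with 110, 109 and 2 calls in vehicle over lean, colesevelam over lean and colesevelam over vehicle. miR-378b in colesevelam over lean passed with limma-voom (0.73, adjusted p = 0.0496) and with the GC slope as a term (0.64, edgeR adjusted p = 0.0424). In colesevelam over vehicle the sign turned with a filter of 50 CPM (0.079 for miR-378a-3p, 0.051 for miR-378b) and with the GC slope (0.15 and 0.087), with no call in any setting. The GC slope term, itself computed from the tested rows, gave 16 calls in vehicle over lean, 44 in colesevelam over lean and 25 in colesevelam over vehicle. In colesevelam over vehicle, upper-quartile factors gave 6 calls, and no filter or summing libraries of one label number 7. Averaging libraries of one label number turned the log2 ratio of miR-378b to miR-378a-3p in vehicle over lean (-0.055) and of miR-378a-3p to miR-378a-5p in colesevelam over lean (0.30) and over vehicle (0.075), and adding 0.5 counts turned the ratio of miR-378b to miR-378a-3p in colesevelam over lean (0.034). The cause of these changes was not tested.

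With 1 library left out, the log2 fold change of miR-378a-3p was 0.65 to 0.89 in vehicle over lean, 0.63 to 0.83 in colesevelam over lean and -0.15 to 0.088 in colesevelam over vehicle. That of miR-378b was 0.61 to 0.85, 0.53 to 0.77 and -0.20 to 0.051, passing once, without lean 3 (0.76, edgeR adjusted p = 0.0488). Calls in colesevelam over vehicle were 7 to 14, with 7 without vehicle 6. The log2 ratio of miR-378b to miR-378a-3p was -0.12 to 0.14, -0.11 to 0.081 and -0.16 to 0.10, and that of miR-378a-3p to miR-378a-5p -0.32 to 0.15 in colesevelam over lean.

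Whether the sample numbers of the titles pair the libraries is not stated, and a check of likeness could not settle it. Deviations of same-numbered libraries correlated at -0.65 to 0.58, and 2, 2 and 4 of 12 libraries correlated best with their own number. With the replicate block, miR-378a-3p had 0.77 in vehicle over lean (edgeR adjusted p = 0.0639) and 0.73 in colesevelam over lean (edgeR adjusted p = 0.0430), and colesevelam over vehicle 7 calls. In the fit of only the obese groups miR-378b had too few counts to test. Depth limits miR-378b and miR-378a-5p most, with 4.5 and 3 counts in their lowest libraries.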
